A study of Mus musculus with 6 samples.

Results

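The 36 genes described here are those of collagens, glycoproteins and proteoglycans of the extracellular matrix, genes that mark fibroblasts, and tendon genes. They were taken by gene symbol from a list of names, and all 36 were found among the 22036 genes of the count table. The rule uses no measured value, but the list was drawn up with earlier results of these data known. RNA from the quadriceps, a thigh muscle made mostly of fast myofibres, was read as full-length nanopore cDNA in 3 libraries of mice labelled Prr14-WT (WT) and 3 labelled Prr14-KO (KO). PRR14 links heterochromatin to the nuclear lamina, and the series title places it in mechanotransduction and myofibre identity. The comparison asked here is whether the matrix and connective tissue transcripts of the muscle differed between genotypes. The labels give no strain, age, sex, treatment or deleted exon, and do not say whether each library is 1 mouse. The p-values below set the difference between genotypes against the spread between these libraries, which need not be that between mice. Replicates are numbered 1 to 3 within a genotype.

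Skeletal muscle is held together by connective tissue that fibroblasts and tendon cells secrete. Fibrillar collagens (types I, III and V) form the tensile fibres, collagen VI and the basement membrane collagens (types IV and XV) surround each myofibre, and small leucine-rich proteoglycans such as decorin bind the fibrils. At the ends of the muscle the tissue passes into tendon, whose cells make tenomodulin, fibromodulin, thrombospondin-4, COMP and chondroadherin. In bulk tissue, fewer cells of a type and less RNA per cell cannot be told apart.

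Promoter windows of 3 genes are shown because the results below turn on their genes: Col3a1, the fibrillar collagen with the most reads, and the tendon genes Chad and Fmod, of which the first varied most and the second less between libraries. Each is the 250 bases before the gene's start, 5′ to 3′ on the gene's strand, from RefSeq on GRCm38.p6, at chr1:45311288-45311537 (plus strand), chr11:94564797-94565046 (plus strand) and chr1:134037004-134037253 (plus strand) in the order below. Capitals mark matches to a TATA box, TATAAA, or to a GC box of the Sp1 type, GGGCGG.
Col3a1: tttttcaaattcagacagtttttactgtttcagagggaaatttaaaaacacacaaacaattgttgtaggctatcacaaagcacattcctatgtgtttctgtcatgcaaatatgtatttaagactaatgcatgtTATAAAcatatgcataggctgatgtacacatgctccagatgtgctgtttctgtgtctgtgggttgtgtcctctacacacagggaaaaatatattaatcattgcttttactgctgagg
Chad: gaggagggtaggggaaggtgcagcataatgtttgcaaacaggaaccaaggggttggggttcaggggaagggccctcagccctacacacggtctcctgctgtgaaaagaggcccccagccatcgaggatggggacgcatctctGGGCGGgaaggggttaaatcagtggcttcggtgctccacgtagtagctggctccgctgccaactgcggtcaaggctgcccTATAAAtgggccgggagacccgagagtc
Fmod: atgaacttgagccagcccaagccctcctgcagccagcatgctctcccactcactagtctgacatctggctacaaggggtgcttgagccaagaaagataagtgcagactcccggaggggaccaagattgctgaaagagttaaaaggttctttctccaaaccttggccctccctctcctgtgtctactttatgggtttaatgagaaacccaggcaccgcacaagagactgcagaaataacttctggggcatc
These boxes and the CAAT box, CCAAT, were looked for on both strands. In Col3a1 the TATA box match begins 117 bases before the start, and in Chad it begins 28 bases before the start with a GC box match at 108 bases. The Fmod window held none of the 3 motifs. Promoter entries were found for 24 of the 36 genes, of which 5 held a CAAT box, 4 a TATA box and 12 a GC box. Among all 32851 windows of this length, 33.9% held a CAAT box, 12.4% a TATA box and 32.7% a GC box. These matches describe letters in the windows and are not measurements of binding.

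The libraries held 1436099 to 1712975 counts, and 11671 to 12193 genes had at least 1 count. Levels are given as CPM, a gene's read count relative to the library's TMM-scaled total. Prr14 itself (chromosome 7, 127459611 to 127476759, plus strand) had 9, 11 and 12 counts in the WT replicates and 4, 10 and 3 in the KO replicates. KO replicate 2, at 6.15 CPM, therefore lay close to the lowest WT library at 6.46 CPM. Because the deleted part is not given in the labels, reads from outside it would check nothing, and results below are also given without this library where it decides a value. Ddx3y, a Y-linked gene, had 82 to 137 counts in every library. The 36 genes together held 0.682%, 0.504% and 0.385% of all counts in WT and 0.637%, 0.487% and 0.501% in KO. Gsn gave 49.4% of those reads, Dcn 16.6% and Col3a1 10.7%.

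None of the matrix, fibroblast or tendon genes tested differed between genotypes past the threshold, an edgeR quasi-likelihood p below 0.05 after Benjamini-Hochberg adjustment over all 6680 genes tested. Of the 29 genes with enough counts to be tested, 0 were called higher in KO, where 2.98% of all tested genes were, and 0 were called lower, where 3.28% were. Their adjusted p ran from 0.0608 to 0.967. At an unadjusted p under 0.05, 3 of the 29 (10.3%) stood apart, Fn1, Col6a1 and Gsn, beside 20.0% of all tested genes. DESeq2 called 1 of the genes lower, Fn1. The KO libraries lay wholly above the WT libraries for 1 gene, Col6a1, where 13.4% of all tested genes did so, and wholly below for 1, Fn1, where 12.3% did. The log2 fold changes were positive for 12 and negative for 17, with a median of -0.11, and the median of all tested genes was 0.02. For 12 of the 29 the 95% interval lay within a 2-fold change in either direction. The other intervals reached past 2-fold. In counts simulated for all 6680 genes, the test found 17.0% of genes changed by 1.5-fold, 63.8% at 2-fold and 100% at 4-fold. The changed genes were drawn at random from all tested genes, whose median SD of log2 CPM was 0.22 in WT and 0.24 in KO. The 29 genes had medians of 0.38 and 0.40, so these shares may be too high for them. The intervals of Chad, Comp and Fn1 reached past 4-fold, on the side of lower levels in KO.

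**Figure D1:**
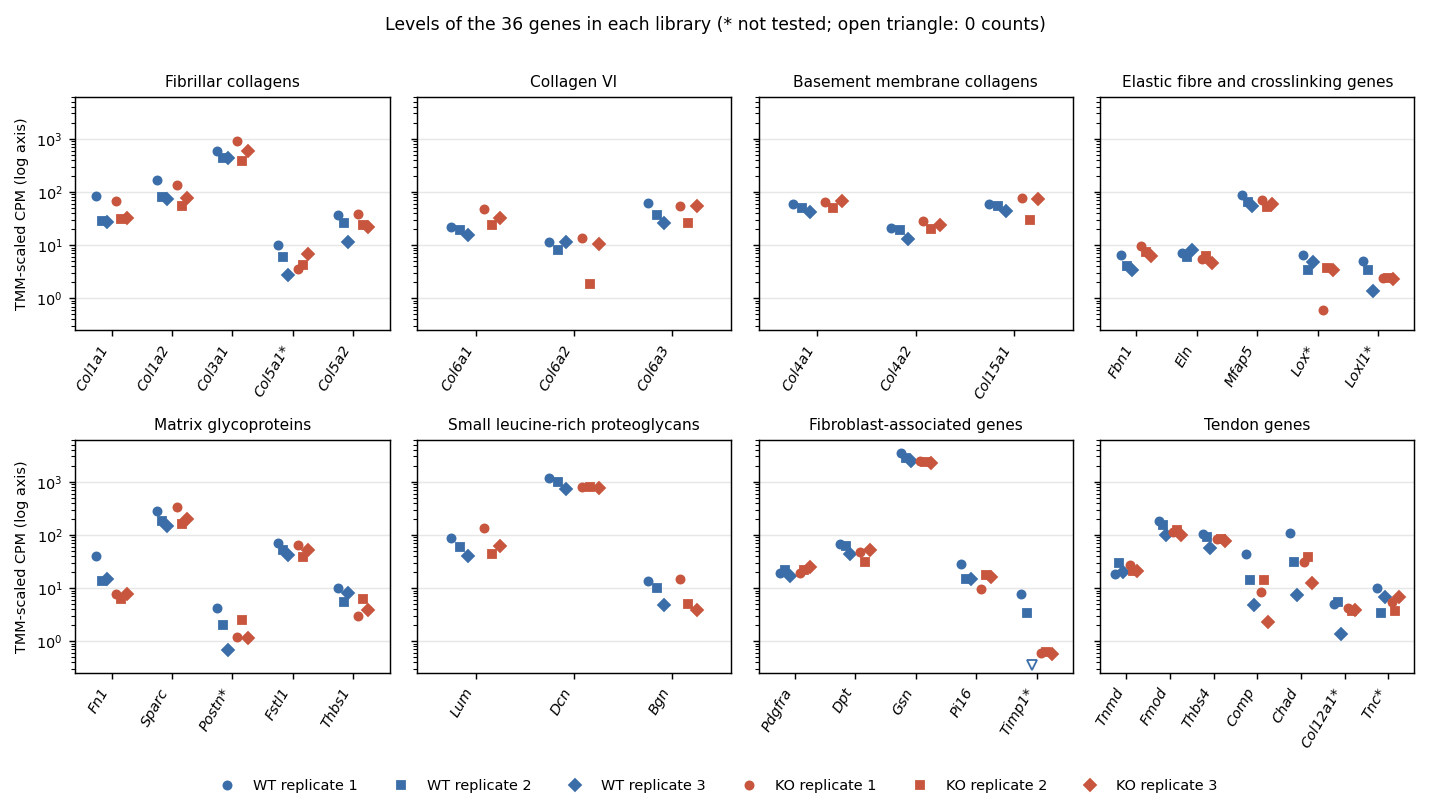
Level of each of the 36 genes in each library, as TMM-scaled CPM on a log axis, in 8 panels by role. Blue symbols are WT and red symbols KO libraries, with 1 symbol shape per replicate number. An asterisk marks the 7 genes with too few counts to be tested and the open triangle a library with 0 counts. The genotypes overlap in every tested gene except Col6a1 and Fn1, and WT replicate 1 (blue circles) is the highest WT library in 25 of the 29 tested genes.

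The genotypes overlapped in every fibrillar collagen, and libraries of a genotype differed from one another. Col3a1 (chromosome 1, 45311538 to 45349706, plus strand), the alpha chain of type III collagen, stood at 581, 432 and 431 CPM in WT replicates 1 to 3 and at 920, 389 and 598 CPM in KO replicates 1 to 3. KO replicate 1 was the highest and KO replicate 2 the lowest of the 6 libraries, so the KO values enclosed all WT values. Its log2 fold change, KO minus WT, was 0.40 (95% interval -0.48 to 1.29, edgeR adjusted p = 0.609). Col1a1 and Col1a2, the chains of type I collagen that makes up most of tendon and scar, showed the same high libraries. Col1a1 had 85.5, 28.9 and 27.1 CPM in WT and 66.3, 31.4 and 32.7 CPM in KO. In each genotype replicate 1 stood far above the other libraries. KO replicates 2 and 3 lay just above WT replicates 2 and 3. The log2 fold change was -0.11 (95% interval -1.62 to 1.41, edgeR adjusted p = 0.951). Col1a2 had 164, 81.4 and 72.5 CPM in WT and 136, 55.3 and 77.3 CPM in KO, with the same order of high libraries. Col5a2, a chain of the type V collagen that starts fibrils, had 37.3, 25.6 and 11.5 CPM in WT and 39.2, 24.0 and 22.0 CPM in KO. Its partner Col5a1 had 4 to 14 counts per library and was not tested. In all 4 tested fibrillar genes WT replicate 1 and KO replicate 1 were the highest of their genotype and WT replicate 3 was the lowest. Col3a1 and Col5a2 are neighbours on chromosome 1, 24.61 kb apart on opposite strands.

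Summed over the 5 fibrillar genes, the WT libraries held 878, 574 and 545 CPM and the KO libraries 1165, 504 and 737 CPM, a mean of 666 ± 185 and 802 ± 335 CPM (SD, n = 3 each). The highest library exceeded the lowest by 1.61-fold in WT and 2.31-fold in KO. The genotypes' means differed by 1.20-fold. A ratio of means is not the same measure as a range of single libraries, so the size of these values is not compared.

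Collagen VI, a beaded microfibril network between basement membrane and interstitium, held the gene nearest to a rise. Col6a1 (chromosome 10, 76708792 to 76726168, minus strand) had 21.5, 19.5 and 15.6 CPM in WT and 48.2, 24.0 and 32.7 CPM in KO. Every KO library lay above every WT library, KO replicate 2 by the smallest margin. The log2 fold change was 0.89 (SE 0.27, 95% interval 0.32 to 1.47), with an edgeR adjusted p of 0.0650, and the exact two-sided permutation p of its levels was 0.1, the smallest that 3 against 3 libraries allow. Without KO replicate 2 the log2 fold change was 1.10 and the adjusted p 0.0194, and without KO replicate 1 they were 0.60 and 0.224. The other chains of the same trimer had intervals that span zero, and differences between the chains were not tested. Col6a2 had 11.5, 8.07 and 11.5 CPM in WT and 13.9, 1.84 and 10.7 CPM in KO, where KO replicate 2 rests on 3 counts. Its log2 fold change was -0.22 (95% interval -1.31 to 0.87). Col6a3 had 61.0, 37.0 and 26.4 CPM in WT and 55.4, 25.8 and 55.3 CPM in KO, with overlapping genotypes and a log2 fold change of 0.15 (95% interval -0.72 to 1.01). Col6a1 and Col6a2 lie 85.16 kb apart on chromosome 10, both on the minus strand. The 3 chains together came to 70.7 ± 21.0 CPM in WT libraries and 89.3 ± 33.9 CPM in KO libraries (SD, n = 3 each).

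The basement membrane collagens gave small positive fold changes, none past the threshold. Col4a1, the chain found in every basement membrane, had 59.6, 50.5 and 42.0 CPM in WT and 64.5, 49.8 and 66.6 CPM in KO. KO replicate 2 lay within the WT range and the others lay just above it, with a log2 fold change of 0.26 (95% interval -0.14 to 0.65, edgeR adjusted p = 0.489). Col4a2, its partner in the trimer, had 20.8, 19.5 and 12.9 CPM in WT and 28.3, 20.3 and 23.7 CPM in KO. The log2 fold change was 0.45 (95% interval -0.08 to 0.98, edgeR adjusted p = 0.350). These genes lie head to head on chromosome 8, Col4a1 at 11198423 to 11312826 on the minus strand and Col4a2 at 11312805 to 11449287 on the plus strand. Their annotated starts overlap by 22 bases, and the use of strand in the counting is not given. Col15a1, which links basement membrane to the fibres around it, had 58.9, 55.2 and 44.0 CPM in WT and 77.1, 30.1 and 72.3 CPM in KO. KO replicate 2 was the lowest of the 6 libraries and the other KO libraries the highest. All 3 fold changes were positive, none passed, and KO replicate 2 was the lowest KO library in all 3 genes. Their sums averaged 121 ± 20.5 CPM over the WT libraries and 144 ± 38.3 CPM over the KO libraries (SD, n = 3 each).

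**Figure D2:**
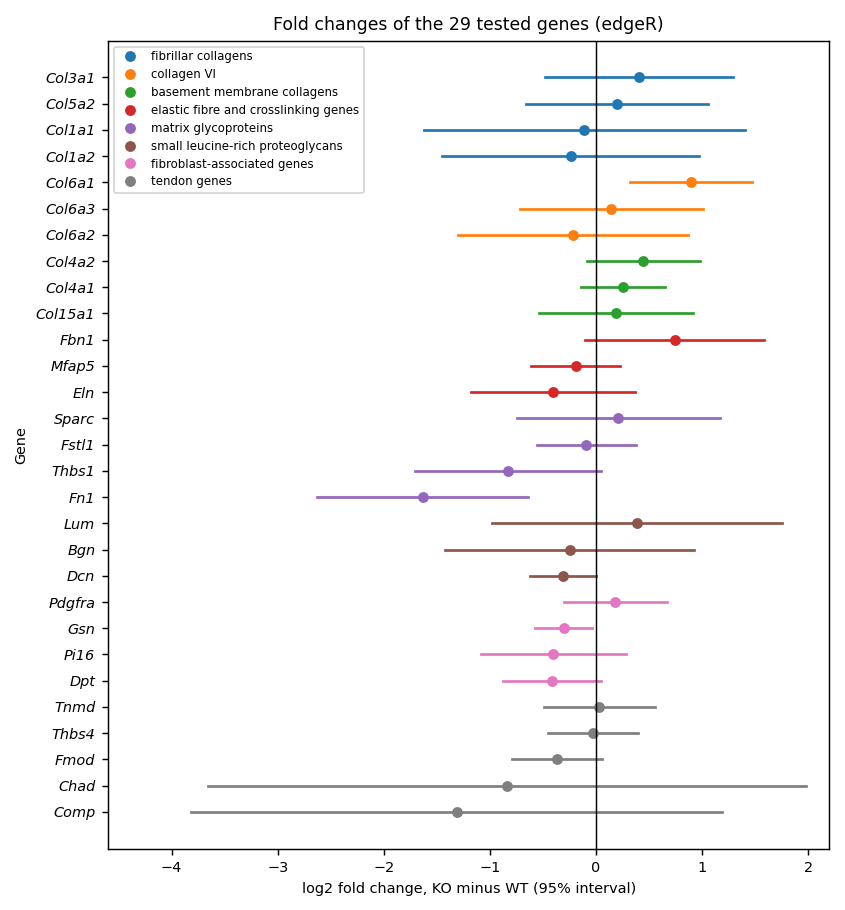
Log2 fold change of KO minus WT for the 29 tested genes from edgeR (points) with 95% intervals (lines), coloured by role. The intervals of Fn1, Gsn and Col6a1 do not reach 0, and those of Chad and Comp are the widest, from -3.66 to 1.98 for Chad and from -3.81 to 1.19 for Comp.

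Elastic fibres, made of elastin on a scaffold of fibrillin, were read at low depth. Fbn1, fibrillin-1, had 9, 6 and 5 counts in WT and 16, 12 and 11 in KO. KO replicate 3, at 6.21 CPM, lay just below WT replicate 1, at 6.46 CPM, and the log2 fold change was 0.74 (95% interval -0.10 to 1.58, edgeR adjusted p = 0.328). Eln, elastin, had 8 to 12 counts per library and a log2 fold change of -0.41. Mfap5, a microfibril glycoprotein with the most reads of this role, had 89.1, 65.9 and 54.2 CPM in WT and 70.5, 51.6 and 60.4 CPM in KO. The genotypes overlapped and the log2 fold change was -0.19 (95% interval -0.61 to 0.23). The crosslinking enzymes Lox and Loxl1, with 34 and 26 counts in all, were not tested. Lox had 9, 5 and 7 counts in WT and 1, 6 and 6 in KO, with an exact permutation p (two-sided) of 0.3.

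Among the matrix glycoproteins Fn1 came closest to a fall. Fn1 (chromosome 1, 71585520 to 71653200, minus strand) codes for fibronectin, which cells lay down early in matrix assembly and repair. It had 57, 20 and 22 counts in WT and 13, 10 and 14 in KO, or 40.9, 13.5 and 14.9 CPM against 7.83, 6.15 and 7.90 CPM. WT replicate 1 stood far above the others, and each of the remaining WT libraries was still above all KO libraries. The log2 fold change was -1.63 (SE 0.45, 95% interval -2.63 to -0.64), with an edgeR adjusted p of 0.0608. Macrophage markers, described below, were also highest in WT replicate 1, and their part in this value was not tested. Without WT replicate 1 the log2 fold change of Fn1 was -0.97 with an edgeR adjusted p of 0.146. Without WT replicate 2 it was -1.93 with 0.0173, and without WT replicate 3 it was -1.88 with 0.0324. Without KO replicates 1, 2 or 3 in turn it was -1.68, -1.53 and -1.70, with adjusted p of 0.195, 0.175 and 0.133. Sparc, a collagen-binding glycoprotein with the most reads of this role, had 278, 182 and 147 CPM in WT and 341, 157 and 202 CPM in KO. Its high libraries were replicate 1 of each genotype, as for the fibrillar collagens, and its log2 fold change was 0.21 (95% interval -0.75 to 1.17). Fstl1, a secreted relative of follistatin, gave -0.09 and Thbs1, thrombospondin-1, which can activate latent TGF-beta, gave -0.83 (95% interval -1.71 to 0.05). Postn, periostin, had 18 counts in all and was not tested.

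**Figure D3:**
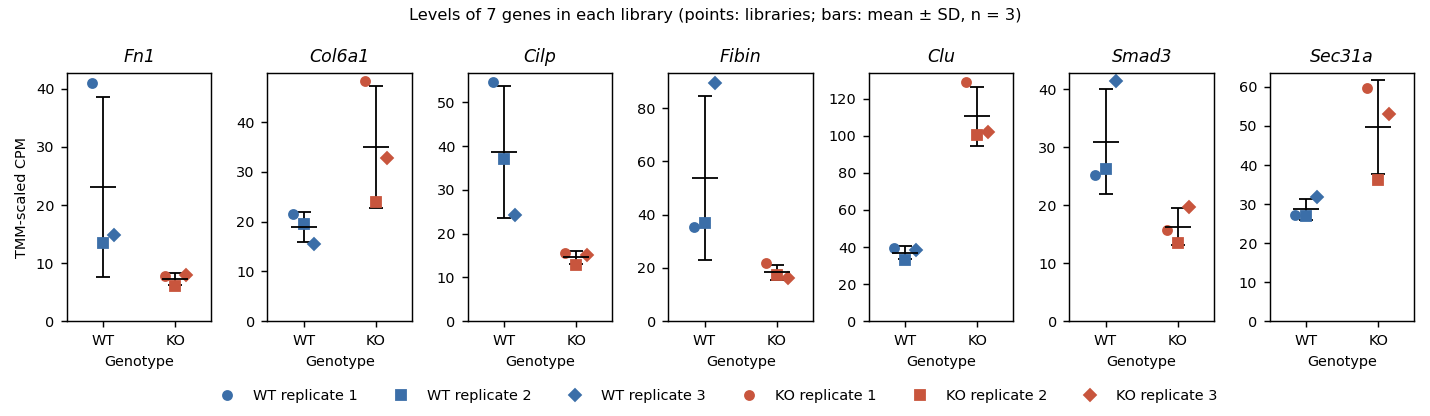
TMM-scaled CPM of Fn1, Col6a1, Cilp, Fibin, Clu, Smad3 and Sec31a in each library (points), with mean ± SD over 3 libraries of a genotype (bars), each panel on its own linear axis from 0. Fn1 in WT replicate 1 stands at 40.9 CPM beside 13.5 and 14.9 CPM in the other WT libraries, and the genotypes do not overlap in any of the 7 panels.

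The proteoglycan decorin and the fibroblast-associated gene Gsn, which gave most of the reads, were steady in KO and spread in WT. Dcn had 1196, 989.7 and 746 CPM in WT and 813, 779.6 and 772 CPM in KO. The SD of log2 CPM was 0.34 in WT and 0.04 in KO, and all KO libraries lay inside the WT range, above WT replicate 3. The log2 fold change was -0.31 (95% interval -0.62 to 0.00, edgeR adjusted p = 0.259). Without WT replicate 3 it was -0.48 with an adjusted p of 0.0338. Gsn codes for gelsolin, an actin-severing protein whose transcript is abundant in fibroblasts and is also made in muscle. It had 3522, 2786 and 2418 CPM in WT and 2475, 2330.3 and 2245 CPM in KO, so that KO replicate 1 overlapped WT replicate 3. The log2 fold change was -0.30 (SE 0.12, 95% interval -0.57 to -0.04, edgeR adjusted p = 0.185). With library totals in place of TMM both moved close to 0, to -0.09 for Dcn and -0.08 for Gsn.

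Lum, lumican, lies 46.98 kb from Dcn on chromosome 10 and had another pattern over the libraries, with 86.2, 59.9 and 40.0 CPM in WT and 137, 43.0 and 62.1 CPM in KO. KO replicate 1 was the highest of all and stood 3.18-fold above KO replicate 2, and the log2 fold change was 0.38 (95% interval -0.98 to 1.75). Bgn, biglycan, had 7 to 25 counts per library and a log2 fold change of -0.25. Pdgfra, the receptor that defines muscle fibroblasts and fibro-adipogenic progenitors, had 19.4, 22.2 and 16.9 CPM in WT and 19.3, 21.5 and 25.4 CPM in KO. Its libraries varied least among the fibroblast genes in WT, with a log2 fold change of 0.18 (95% interval -0.30 to 0.67). Dpt, dermatopontin, and Pi16, a marker of adventitial fibroblasts, gave -0.42 and -0.40, with intervals that reach above 0. Timp1, a secreted inhibitor of matrix metalloproteinases, had 11, 5 and 0 counts in WT and 1, 1 and 1 in KO. The ratio of KO to WT over the pooled counts was 0.161 (95% exact binomial interval 0.0301 to 0.564, counting error only), and WT replicate 3 had fewer counts than any KO library (exact two-sided permutation p = 0.4).

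The tendon genes comprised 3 that stayed within 2-fold between libraries of a genotype and others that ranged further. Tnmd, tenomodulin, a membrane protein of mature tendon cells, had 18.7, 29.6 and 19.6 CPM in WT and 27.7, 20.9 and 20.9 CPM in KO (log2 fold change 0.03, 95% interval -0.49 to 0.55). Thbs4, thrombospondin-4, a matrix protein of the muscle and tendon boundary, had 103, 90.2 and 55.5 CPM in WT and 84.3, 82.4 and 77.3 CPM in KO (log2 fold change -0.03, 95% interval -0.45 to 0.40). For both, a 2-fold change between genotypes lay outside the interval. Fmod (chromosome 1, 134037254 to 134048277, plus strand), fibromodulin, had the most reads of the tendon genes, with 180.3, 155 and 99.6 CPM in WT and 113, 124 and 99.4 CPM in KO. KO replicates 1 and 2 lay within the WT range and KO replicate 3 at its lower edge, with a log2 fold change of -0.37 (95% interval -0.79 to 0.05, edgeR adjusted p = 0.331).

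Chad and Comp showed the other pattern. Chad (chromosome 11, 94565047 to 94569127, plus strand) codes for chondroadherin, a leucine-rich matrix protein of cartilage and tendon, and Comp (chromosome 8, 70373558 to 70382066, plus strand) for cartilage oligomeric matrix protein. Chad had 108, 30.9 and 7.45 CPM in WT, a 14.5-fold range, and 30.7, 38.1 and 12.4 CPM in KO. Comp had 43.1, 14.1 and 4.74 CPM in WT, a 9.09-fold range, and 8.43, 14.1 and 2.26 CPM in KO. Both were highest in WT replicate 1 and, in KO, highest in replicate 2 and lowest in replicate 3, and the WT range enclosed every KO value of Chad. The log2 fold changes were -0.84 for Chad and -1.31 for Comp, with edgeR adjusted p of 0.741 and 0.549. Without WT replicate 1 they were 0.47 and -0.23. Col12a1 and Tnc, a fibril-associated collagen and tenascin-C, had 37 and 56 counts in all and were not tested (exact two-sided permutation p = 1 and 0.7). Chad lies 367.1 kb from Col1a1, and their KO libraries differ in order, since KO replicate 1 was the highest for Col1a1 and KO replicate 2 for Chad.

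The 7 tendon genes summed to 468, 329 and 195 CPM in WT and 273, 287 and 223 CPM in KO, a 2.40-fold range in WT and a 1.29-fold range in KO. KO replicate 3 was the lowest KO library in all 5 tested tendon genes, and WT replicate 3 the lowest WT library in 4 of 5. Fibrillar collagens had KO replicate 1 highest in 4 of 4 genes instead. The means were 331 ± 137 CPM in WT and 261 ± 33.8 CPM in KO (SD, n = 3 each). As a log2 difference of KO from WT the sum stood at -0.26 with TMM and at -0.024 with library totals.

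**Figure D4:**
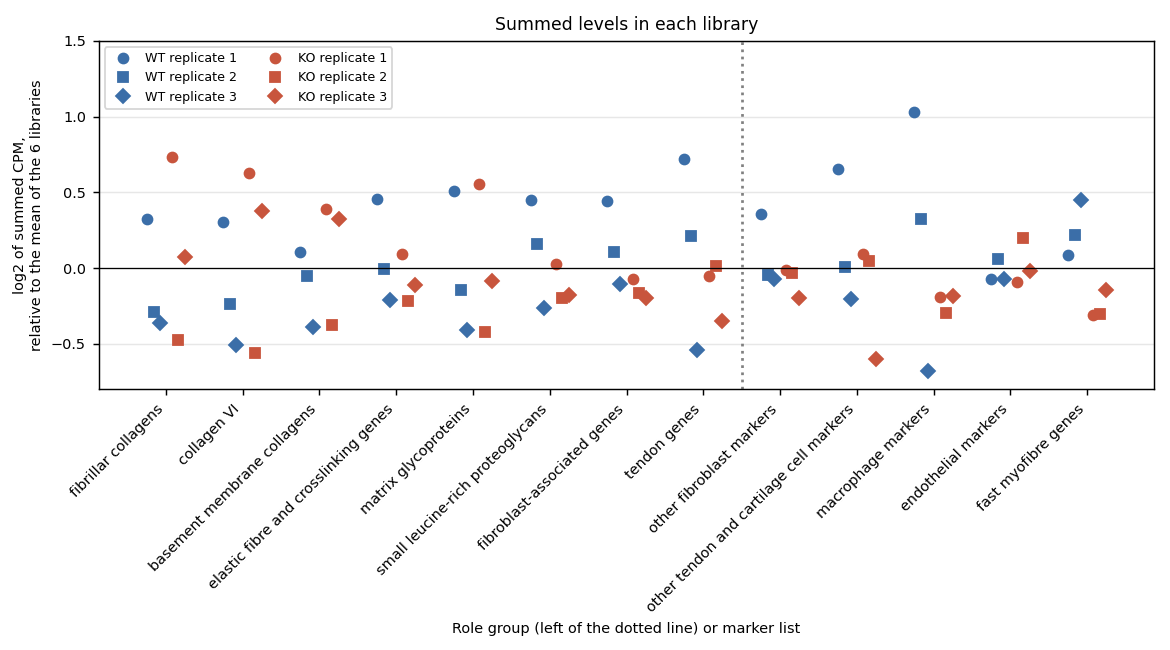
Summed CPM of each role group (left of the dotted line) and of 5 marker lists (right) in each library, as log2 relative to the mean of the 6 libraries. WT replicate 1 (blue circles) is the highest WT library in all 8 role groups and WT replicate 3 (blue diamonds) the lowest, and KO replicate 1 is the highest of all in the fibrillar, collagen VI, basement membrane and glycoprotein groups.

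The spread between libraries of a genotype was measured as the SD of log2 CPM over 3 libraries. Its median over the 29 tested genes was 0.38 in WT and 0.40 in KO, and 0.22 and 0.24 over all 6680 tested genes. In WT 25 of the 29 genes, and in KO 18, had an SD above the median of all tested genes. By role, in WT and then KO, the median SD was 0.72 and 0.60 for fibrillar collagens, 0.26 and 0.61 for collagen VI, 0.25 and 0.23 for basement membrane collagens, and 0.46 and 0.22 for tendon genes. By these medians the fibrillar collagens were above the all-gene median in both genotypes and the basement membrane collagens near it. Collagen VI was above it mainly in KO and the tendon genes mainly in WT. Single genes departed from the median of their role, with SDs in KO of 0.74 for Col15a1, 0.81 for Chad and 1.09 for Comp. The 5 tested tendon genes each had a larger SD in WT than in KO. The largest single values were 1.82 for Chad and 1.44 for Comp in WT, and 1.23 for Col6a2 and 1.09 for Comp in KO. Counting error alone was smaller than the observed coefficient of variation for 24 of the 29 genes in WT and 23 in KO. The highest library exceeded the lowest by at least 2-fold for 9 genes in WT and 13 in KO.

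**Figure D5:**
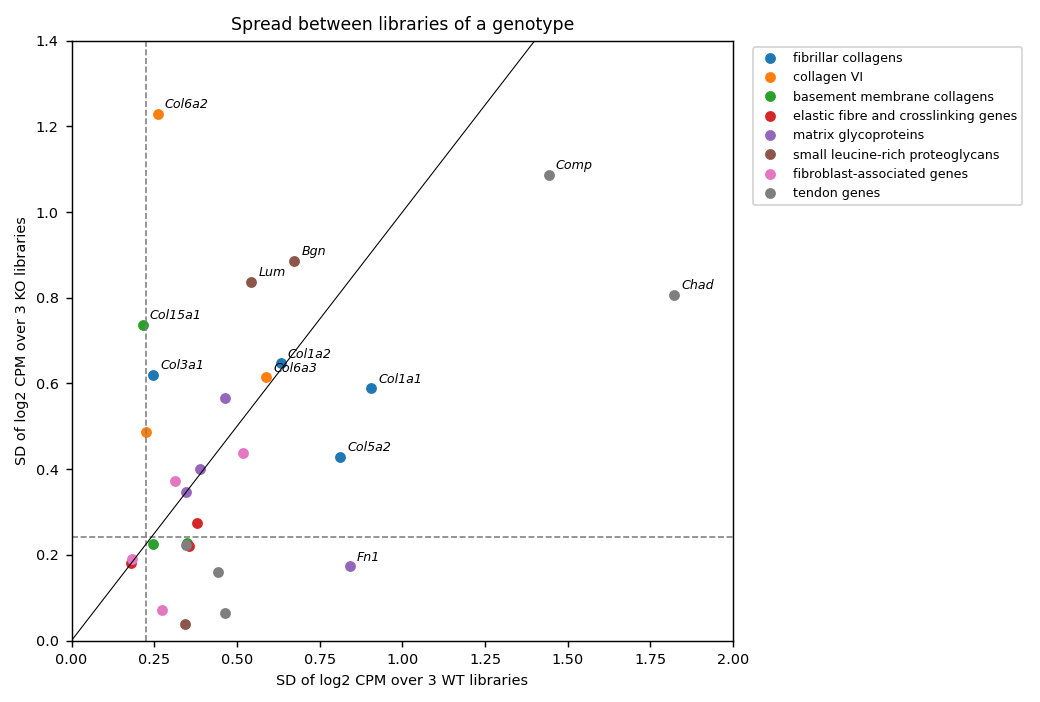
SD of log2 CPM over the 3 KO libraries (vertical axis) against that over the 3 WT libraries (horizontal axis) for the 29 tested genes, coloured by role. Dashed lines mark the medians of all 6680 tested genes (0.22 in WT, 0.24 in KO) and the solid line equal SDs. Chad and Comp stand furthest right at 1.82 and 1.44, Col6a2 stands highest at 1.23, and all 5 tendon genes lie below the solid line.

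The same libraries stood out gene after gene. WT replicate 1 was the highest WT library in 25 of the 29 tested genes and in 32.6% of all tested genes, and WT replicate 3 was the lowest in 23 of the 29 and in 35.1% of all. KO replicate 1 was the highest KO library in 19 of the 29 (37.6% of all tested genes), and KO replicate 2 the lowest in 15 (34.6%). These shares are descriptions, since genes of one tissue compartment in one library are not independent. Leaving out WT replicate 1 turned the balance of fold changes from 12 positive and 17 negative to 17 positive and 12 negative, while leaving out KO replicate 1 gave 6 positive and 25 negative among 31 tested genes.

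Among the WT libraries some marker lists of other cells had replicate 1 highest and replicate 3 lowest, as the matrix genes did. Among the KO libraries their order differed from that of the sum of all 36 genes. The order of the Schwann cell markers was that of the summed tendon genes. Macrophage markers (15 genes, 12 tested, 0 called) summed to 684, 418 and 209 CPM in WT and to 293, 272 and 294 CPM in KO, so that WT replicate 1 was high and WT replicate 3 low as for the matrix genes. Of the defining macrophage genes Adgre1 had 12, 13 and 3 counts in WT and 5, 6 and 4 in KO, Cd68 had 4 to 20 per library, and Cx3cr1 had 0 in 4 libraries and at most 2. Red blood cell genes (5 tested, 0 called) also ran from 3942 to 1606 CPM over WT and from 1379 to 1986 CPM over KO. Schwann cell markers (5 tested, 0 called) ran from 171 to 296 CPM in WT and stood at 185, 230.0 and 154 CPM in KO. KO replicate 2 was thus the highest and KO replicate 3 the lowest, as for the summed tendon genes. The part of these other cells in the matrix results was not tested. Endothelial markers (13 tested, 0 called), at 402 to 439 CPM in WT and 395 to 484 CPM in KO, and smooth muscle and pericyte markers (12 tested, 0 called), at 906 to 1011 and 834 to 1000.4 CPM, varied less. Satellite cell markers (4 tested, 0 called) stood at 73.3 to 76.9 and 67.0 to 102 CPM.

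Among adipocyte markers (12 tested) 1 was called, Car3, carbonic anhydrase 3, which slow myofibres also make in quantity. It had 4207, 3402 and 6505 CPM in WT and 1832, 1391 and 1534 CPM in KO, without overlap, and was lower in KO by a log2 fold change of -1.57 (edgeR adjusted p = 0.0204, SE 0.26). The call held in 11 of 14 alternatives and was lost on leaving out any 1 KO library, with an adjusted p of up to 0.142. It carried the largest share of the list's summed level of 4691 to 7298 CPM in WT and 2592 to 3155 CPM in KO. Adipoq, the defining adipocyte gene, had 78, 59 and 21 counts in WT and 81, 80 and 49 in KO. Cfd, another marker of the list, had 525, 258 and 85.3 CPM in WT and 392, 432 and 259 CPM in KO. In CPM both were highest in WT replicate 1 and lowest in WT replicate 3, while Car3, Lpl and Plin4 had other orders. In KO both were highest in replicate 2 and lowest in replicate 3, as Chad and Comp were. The median SD of log2 CPM over the 12 tested markers was 1.04 in WT and 0.39 in KO. The fast myofibre genes, the bulk of the tissue, summed to 206736, 225815 and 265826 CPM in WT and to 156913, 157437 and 175523 CPM in KO, and 4 of 10 fell (Myh4, Mylpf, Tnnc2 and Pvalb). Myh4, Mylpf and Tnnc2 were past the threshold in 14 of 14 alternatives and Pvalb in 7 of 14, with an adjusted p of up to 0.317. The order of the WT libraries was thus the reverse of that of the matrix genes. TMM factors were 0.862 to 0.970 in WT and 1.055 to 1.108 in KO, and with library totals instead the median of all tested genes moved from 0.02 to 0.25 and the calls from 199 higher and 219 lower to 653 higher and 148 lower. The tested matrix genes had medians of -0.11 and 0.11 under these scalings, below the all-gene median in both, while 12 fold changes were positive with TMM and 17 with library totals.

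Further fibroblast and tendon genes were read from lists of the same kind. The other fibroblast markers (18 genes, 13 tested, 0 called) summed to 934, 707 and 692 CPM in WT and 723, 713 and 636 CPM in KO, again with WT replicate 1 highest. Of the other tendon and cartilage cell markers (17 genes, 6 tested), 1 rose and 2 fell. Cilp, cartilage intermediate layer protein, had 54.6, 37.0 and 24.4 CPM in WT and 15.7, 12.9 and 15.2 CPM in KO. All KO libraries lay below all WT libraries, although WT replicate 1 stood over WT replicate 3 as in the matrix genes, with a log2 fold change of -1.39 (edgeR adjusted p = 0.00813, SE 0.28). It stayed past the threshold in 14 of 14 alternative analyses. Fibin, a secreted protein named for fin bud initiation, had 35.2, 37.0 and 89.4 CPM in WT and 21.7, 17.2 and 16.4 CPM in KO. WT replicate 3 was the high library here, and its log2 fold change of -1.54 (edgeR adjusted p = 0.0471, SE 0.38) was past the threshold in 9 of 14 alternatives. Clu, clusterin, a secreted chaperone made by many cell types, rose from 39.5, 33.0 and 38.6 CPM in WT to 129, 100.2 and 102 CPM in KO. A log2 fold change of 1.58 (edgeR adjusted p = 3.12e-05, SE 0.17) was past the threshold in 14 of 14 alternatives.

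Prg4, lubricin, the lubricating proteoglycan of joint and tendon surfaces, did not pass (edgeR adjusted p = 0.431). It had 211, 24 and 7 counts in WT and 13, 20 and 6 in KO, so that WT replicate 1 stood far above the rest in the order seen for Chad and Comp. Scx, the transcription factor that defines tendon cells, had 0 counts in every WT library and 3, 1 and 1 in KO, and Acan and Col9a1, which mark cartilage, had 0 counts in all 6. A count of 3, taken as the limit that 0 allows, corresponds to 1.69 to 2.15 CPM. Myotendinous junction genes (10 genes, 2 tested, 0 called) summed to 147, 88.1 and 79.9 CPM in WT and 37.4, 66.4 and 50.3 CPM in KO. Itgb1bp2 was the largest single part of this sum in every library except WT replicate 1. It had 50.3, 47.1 and 52.15 CPM in WT and 16.3, 38.1 and 29.9 CPM in KO (edgeR adjusted p = 0.0668). The sum alone is therefore no measure of a fall shared by these genes. Both tested genes, Itgb1bp2 and Ebf1, had negative log2 fold changes, -0.82 and -0.23. Of the untested genes, Tigd4 had 9, 15 and 10 counts in WT and 0, 4 and 2 in KO. Col22a1 had 5, 6 and 5 counts in WT and 3, 3 and 4 in KO. Tigd4 and Col22a1 lay wholly below WT in KO, as 12.3% of all tested genes did, and the other untested genes overlapped. Ankrd1, a stretch-responsive muscle gene, gave 77 of the counts of WT replicate 1 and 2 to 8 elsewhere.

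Genes that build, signal to and remodel the matrix were read from lists, and their calls stand beside shares of 2.98% higher and 3.28% lower among all tested genes. Of the genes of collagen synthesis and processing (20 genes, 12 tested) 1 rose, Sec31a, a coat protein of the vesicles that export procollagen. It had 27.3, 26.9 and 31.8 CPM in WT and 59.6, 36.3 and 53.1 CPM in KO, without overlap, and a log2 fold change of 0.79 (edgeR adjusted p = 0.0410, SE 0.21, past the threshold in 6 of 14 alternatives). The list's median was 0.20. Serpinh1, the collagen chaperone HSP47, had 116, 67.3 and 60.3 CPM in WT and 131, 78.7 and 66.1 CPM in KO, with replicate 1 of each genotype high as for the fibrillar collagens. Of the TGF-beta pathway genes (20 in the table, 13 tested) 1 fell, Smad3, a transcription factor that carries the TGF-beta signal to the nucleus. It had 25.1, 26.2 and 41.3 CPM in WT and 15.7, 13.5 and 19.8 CPM in KO, without overlap, and a log2 fold change of -0.91 (edgeR adjusted p = 0.0487, SE 0.26, past the threshold in 4 of 14 alternatives). Mstn, myostatin, a TGF-beta family ligand that limits muscle growth, had 71.8, 109.7 and 159.8 CPM in WT and 65.7, 24.6 and 39.0 CPM in KO, without overlap, and did not pass (log2 fold change -1.40, edgeR adjusted p = 0.149). The summed level of the list, which includes Mstn, did not overlap between genotypes either. It stood at 346, 358 and 381 CPM in WT and 272, 251 and 241 CPM in KO. Of the 13 tested genes of the list, 6 had positive and 7 negative fold changes, with a median of -0.13. The sum is therefore no measure of a fall shared by the list.

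Of the matrix receptors (24 genes, 10 tested) 1 rose, Itga7, the laminin-binding integrin of myofibres. It had 19.4, 20.2 and 17.6 CPM in WT and 30.7, 36.3 and 29.4 CPM in KO, without overlap, with a log2 fold change of 0.75 (edgeR adjusted p = 0.0478, SE 0.21, past the threshold in 3 of 14 alternatives). None of the 10 tested matrix proteases and inhibitors, the 8 tested other basement membrane genes or the 17 tested other interstitial matrix genes passed. At an unadjusted p under 0.05 in edgeR these lists held 1, 0 and 4 genes, beside 20.0% of all tested genes. Of the interstitial genes 13 had negative and 4 positive fold changes, with a median of -0.18, and Ogn, osteoglycin, with an adjusted p of 0.0698, was nearest to the threshold.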

How the data were processed

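Libraries were full-length nanopore cDNA made by template switching with 14 cycles of PCR, per the labels' protocols. The submitters' processing notes name minimap2, DESeq2 1.6.3 and the build GRCm38. Which counter, annotation and strand setting were used is not given. The authors deposited whole-number counts per Ensembl gene, not normalized, and CPM made from them, which were used only to look at library totals. Symbols came from a reference table for 22022 of 22036 identifiers, and positions from GENCODE M21 on GRCm38.

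In R 4.3.3, edgeR 4.0.16 kept 6680 genes (filterByExpr, minimum count 10, minimum total 15), scaled by TMM and compared KO with WT by its quasi-likelihood test (robust), adjusted by Benjamini-Hochberg at 0.05. Printed CPM divide counts by TMM-scaled totals of the listed genes, and log2 CPM add a prior count of 2. Genes under the filter have exact permutation tests. On simulated counts of this comparison (6680 genes), 11 of 136 calls were false (8.09%). Within a genotype, pairs of libraries differed beyond sampling noise (chi-square over its degrees of freedom 2.19 to 5.35). The 95% intervals of log2 fold changes come from the edgeR fit and carry the spread between libraries. The binomial interval of Timp1 and the floors cover counting error only, since reads have no molecular identifiers.

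The 36 genes, their roles, and the pathway and marker lists were chosen with earlier results of these data known. Of the 36 genes, those past the threshold, with an unadjusted p under 0.05, with most reads in their role, or without overlap between genotypes have values in every library. Of each list, up to 4 passing genes are named in order of p. Other genes named or given by library were chosen after their values were seen. Alternatives changed the scaling (DESeq2 size factors, upper quartile, library totals), the filter (none, or 5 CPM in 3 libraries) or the method (DESeq2 1.42.0, limma 3.58.1 with voom, robust=FALSE), left out each library, or set the prior count to 0.5 for the spread.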

Additional observations from a re-analysis of the deposited data

How the results depend on the processing

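Of the 36 genes, 0 were called in either direction under DESeq2 size factors, upper-quartile scaling, the filter of 5 CPM, limma-voom and robust=FALSE. Library totals called 1 higher (Col6a1, log2 fold change 1.13, adjusted p = 0.0203), no filter called 1 higher and 1 lower (Col6a1 and Fn1), and DESeq2 called 1 lower (Fn1, adjusted p = 0.0185). Without 1 library in turn, 0 to 1 were called higher (Col6a1, without KO replicate 2) and 0 to 2 lower (Fn1 without WT replicate 2, and Fn1 and Dcn without WT replicate 3). The adjusted p of Fn1 ran from 1.39e-05 (no filter) to 0.195 and that of Col6a1 from 0.00816 (no filter) to 0.224, and both kept their sign in 14 of 14 alternatives. Over all genes, 199 were called higher and 219 lower, against 653 higher with library totals, 344 higher and 362 lower with no filter, and 129 higher with DESeq2. Leaving out 1 library gave 83 to 179 higher and 154 to 187 lower. The summed level of the fibroblast-associated genes, a log2 difference of -0.29, was -0.0557 with library totals. The causes were not tested. With a prior count of 0.5 the median SD over the tested genes was 0.44 in WT and 0.44 in KO. No paired analysis was possible because the genotypes' titles share only 1 number. The filter on counts left 7 of the 36 genes, with 18 to 56 counts in all, out of the main test. Tendon genes had a summed log2 difference of -0.26 with TMM and -0.024 with library totals, and all 36 genes -0.16 and 0.077.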
